A study of Mus musculus with 6 samples.

Results

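The 40 genes described here belong to the stress response of the endoplasmic reticulum (ER) and to the amino acid response. They are the sensors and targets of the unfolded protein response, and genes driven by the transcription factor ATF4 that make, import or charge amino acids. They were taken by symbol from a deposited table of 39174 genes, where each was found once. RNA was sequenced from MLO-Y4 cells, a mouse line with osteocyte features, the only cell line of the study. In the flow group, 3 cultures received 2 h of oscillating fluid flow (10 dyn/cm2) in parallel-plate chambers, then 2 h in fresh medium before lysis. The other 3 cultures were sham-treated, non-flow controls, and their labels give the same 2 h of post-incubation. All 6 grew on glass slides coated with type I collagen, in serum-containing medium, to roughly 60% confluence, and replicates were taken on separate days. The design sets RNA levels 2 h after flow against those of sham cultures. Since all libraries are bulk RNA of a culture, fewer cells of a type and less RNA per cell cannot be told apart, and p-values measure only the spread between these cultures.

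Proteins that misfold in the ER are sensed by 3 membrane proteins, encoded by Eif2ak3 (PERK), Ern1 (IRE1) and Atf6. PERK phosphorylates the translation factor eIF2 alpha, which lowers general translation and favours translation of Atf4 mRNA. IRE1 splices Xbp1 mRNA into the form that encodes an active transcription factor, and ATF6 is cut in the Golgi to release its active part. Kinases that sense uncharged tRNA, haem loss or viral RNA act on the same eIF2 alpha site, so ATF4 also serves the response to amino acid shortage. In bone, where cells secrete large amounts of collagen, ATF4 and PERK are known for their part in osteoblast function. Gene-level RNA values show neither splicing of Xbp1, cleavage of ATF6 nor translation of Atf4.

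Promoter windows were shown because they hold the DNA elements that define these pathways. RefSeq (GRCm38.p6, the mm10 assembly) gave a window for 34 of the 40 genes, and the 250 bases upstream of the start were searched on both strands. Atf6, Manf, Slc7a5, Slc1a5, Nars and Wars had no window. The C/EBP-ATF response element (searched as TGATGNAA), bound by ATF4 with C/EBP partners, was in 5 of 34 genes (14.7%), against 3.91% of all 27025 genes with a window of that length. These were Aars, Asns, Chac1, Herpud1 and Vldlr. The ER stress response element (CCAAT, 9 bases of any kind, then CCACG), bound by ATF6 and XBP1 with NF-Y, was in Calr, Canx, Creld2, Pdia6 and Syvn1, against 0.130% of all genes. Its second form (ATTGG, 1 base of any kind, then CCACG) was in Herpud1, against 0.037% of all genes. The unfolded protein response element (TGACGTGG) was in none of the 34, against 0.603% of all genes. A match is a description of the letters and not a measured site. Below are Asns and Chac1, each with the C/EBP-ATF element, Herpud1 with that element and the second form of the ER element, and Calr with the ER element. Capitals mark the matches, some of which lie on the opposite strand to the gene, and each is written 5′ to 3′ along the gene.
Asns, chr6:7693210-7693459, minus strand: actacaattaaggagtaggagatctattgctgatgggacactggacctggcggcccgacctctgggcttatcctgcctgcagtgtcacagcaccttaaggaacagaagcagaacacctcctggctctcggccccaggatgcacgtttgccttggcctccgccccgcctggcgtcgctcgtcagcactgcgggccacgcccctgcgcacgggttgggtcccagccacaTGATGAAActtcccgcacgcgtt
Chac1, chr2:119350992-119351241, plus strand: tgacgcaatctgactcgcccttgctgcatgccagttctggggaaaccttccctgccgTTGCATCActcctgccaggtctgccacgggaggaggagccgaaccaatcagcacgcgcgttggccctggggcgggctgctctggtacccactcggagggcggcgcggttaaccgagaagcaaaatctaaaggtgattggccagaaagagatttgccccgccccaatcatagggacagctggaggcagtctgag
Herpud1, chr8:94386179-94386428, plus strand: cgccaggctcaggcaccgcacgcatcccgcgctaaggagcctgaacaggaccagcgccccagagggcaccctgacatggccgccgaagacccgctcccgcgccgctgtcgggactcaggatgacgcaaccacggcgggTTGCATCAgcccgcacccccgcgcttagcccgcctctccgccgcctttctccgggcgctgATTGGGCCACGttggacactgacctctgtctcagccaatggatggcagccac
Calr, chr8:84846932-84847181, minus strand: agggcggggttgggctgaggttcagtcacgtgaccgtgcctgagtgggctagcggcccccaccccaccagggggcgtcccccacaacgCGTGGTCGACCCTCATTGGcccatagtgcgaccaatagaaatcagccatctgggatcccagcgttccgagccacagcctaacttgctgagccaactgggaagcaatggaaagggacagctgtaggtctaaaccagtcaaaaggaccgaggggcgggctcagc

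Values are the authors' deposited FPKM, a density of reads scaled by transcript length and library size. Depth read from the steps of low FPKM values was 17910000 to 19010000 reads in the controls. In flow libraries 1 to 3 it was 11020000, 5750000 and 19230000. Mitochondrially encoded transcripts took 9.40% to 13.5% of FPKM in the controls and 20.7%, 16.1% and 10.7% in flow libraries 1 to 3. Of 7 osteocyte markers, Gja1 (414 to 503 FPKM over the libraries) and Pdpn were abundant and Phex had 4.06 to 7.46 FPKM, while Sost, Mepe and Fgf23 were listed at 0 in every library and Dmp1 did not reach 1 FPKM. Of 5 osteoblast and fibroblast markers, Col1a1 and Col1a2 averaged 153.6 and 114.4 FPKM in the controls and 132.2 and 95.2 in flow. Bglap and Runx2 averaged 9.03 and 8.65 FPKM in the controls and 7.38 and 7.35 in flow, while Ibsp did not reach 1 FPKM. Of the 4 tested, 0 passed the test described below, and Col1a2 lay below all controls in flow (8% of all genes). None of 4 endothelial and 3 epithelial markers reached 1 FPKM. Of the 5 blood cell markers in the table, summing to 1.95 to 4.07 FPKM in the sham cultures and 2.41 to 3.69 in flow, only Cd68 averaged 1 FPKM or more.

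In sham-treated cells the genes of both responses were abundant. Of the 40, 39 averaged 1 FPKM or more and were tested, with control means from 10.3 (Eif2ak3) to 1302 FPKM (Calr). Their median control mean was 165.0 FPKM, against 15.4 for all 11957 genes tested, and 25 of the 39 lay in the top 10% of those genes. Atf4 stood at the 97.8th percentile, and Ddit3, which encodes the stress transcription factor CHOP, at the 97.9th. The sensors Eif2ak3 and Ern1 were the only members under the median, at percentiles 39.5 and 47.2.

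No member passed the test of flow against control. Fold changes are flow minus control on the log2(FPKM + 1) scale and were tested with limma over all 11957 genes. Of the 39 members, 0 had an adjusted p under 0.05, where 0.0167% of all genes did. Without adjustment 3 members had p under 0.05 (Ero1l, Sel1l and Aars, limma), or 7.69% of them against 8.52% of all genes. In 4 members (10.3%) flow and control libraries did not overlap, against 15.1% of all genes. These were Asns and Sel1l, higher in flow (7.12% of all genes), and Ero1l and Aars, lower in flow (8% of all genes). The median log2 fold change was 0.04 over the members and -0.01 over all genes, with 22 members above 0 and 17 below. Its size was under 0.25 in 30 of 39 members (76.9%, against 66.6% of all genes). The 95% interval of the fold change stayed within 1 log2 unit either way in 34 members (87.2%, against 84.9% of all genes). The intervals of the other 5 (Sel1l, Ero1l, Chac1, Sesn2 and Herpud1) reached further.

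**Figure D1:**
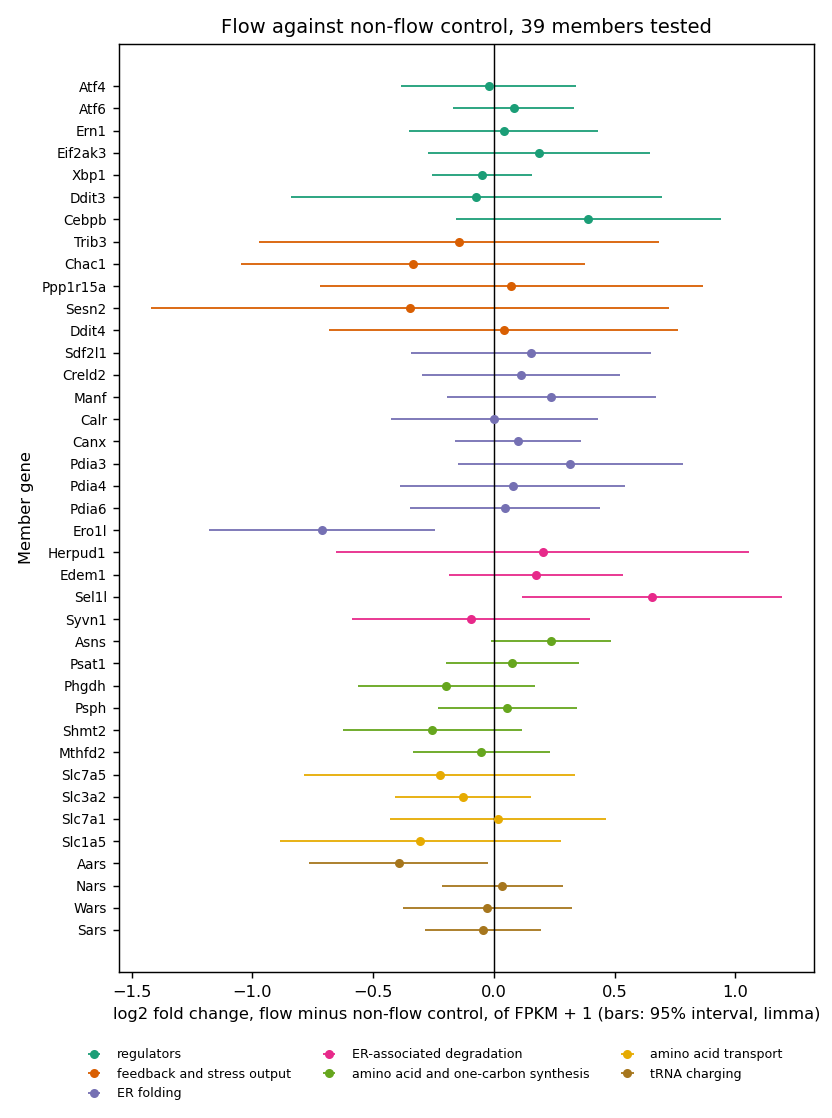
Log2 fold change of FPKM + 1, flow minus non-flow control, for the 39 members tested (points), with 95% intervals from limma (bars) and colours by role. Intervals of Ero1l and Aars lie below 0 and that of Sel1l above it, and all others include 0.

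Of 7 sensors and transcription factors, 4 had fold changes above 0 and 3 below, and in all 7 the groups overlapped. Atf4 had 342.1, 429.6 and 404.0 FPKM in controls 1 to 3 and 321.3, 433.8 and 406.7 in flow libraries 1 to 3 (log2 fold change -0.02, 95% interval -0.38 to 0.34). Its groups overlapped, and library 1 was the lowest of each group. Xbp1 had 60.6, 67.6 and 62.4 FPKM in the sham cultures and 60.2, 63.7 and 60.2 in flow, with the narrowest interval of the 39 (-0.25 to 0.16).

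Ddit3, an output of PERK and ATF4 signalling linked to cell death, had 323.3, 561.7 and 300.4 FPKM in the sham cultures and 290.7, 516.3 and 311.6 in flow. Library 2 of each group was well above the other libraries of its group, and the fold change was -0.07 with an interval of -0.84 to 0.69. Exons of other genes on its strand cover 6.13% of its exon bases and exons on the opposite strand 4.73%. Atf6 had 33.5, 36.5 and 31.7 FPKM in the sham cultures and 35.3, 39.2 and 33.3 in flow. Ern1 had 11.9, 15.1 and 14.8 FPKM in the sham cultures and 11.6, 15.6 and 16.2 in flow. Eif2ak3 had 9.35, 9.02 and 12.6 FPKM in the sham cultures and 12.1, 14.2 and 9.43 in flow, so the highest control and the lowest flow library crossed the groups. For these 3 sensors the fold changes were 0.08, 0.04 and 0.19, and each interval included 0. Cebpb, a partner of ATF4 on the C/EBP-ATF element, had 68.0 ± 10.8 FPKM in the sham cultures and 90.9 ± 23.2 after flow (SD, n = 3), or 0.39 on the log2 scale (interval -0.16 to 0.94, limma adjusted p = 0.570). After a correction for GC content, described further on, it was 0.65 (interval 0.20 to 1.11) and all flow values lay above all controls. Exons of Tmem189 on the opposite strand cover 20.7% of its exon bases.

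Among the roles, feedback and output genes of the stress response had the widest range of median deviations over the libraries, from -0.68 to 0.37 log2 units around each gene's mean. Trib3, a pseudokinase that restrains ATF4 signalling, had 59.2, 94.4 and 102.3 FPKM in the sham cultures and 47.4, 84.5 and 105.4 in flow (log2 fold change -0.14, interval -0.97 to 0.69). Chac1, which degrades glutathione, had 37.1, 61.2 and 54.0 FPKM in the sham cultures and 27.2, 54.6 and 40.5 in flow (-0.33, interval -1.05 to 0.38). Leaving out flow library 1 gave -0.08 for Chac1, and leaving out flow library 2 gave -0.57. In these genes library 1 was the lowest of each group and the groups overlapped.

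Ppp1r15a (GADD34), which directs the phosphatase of eIF2 alpha, had 118.9 ± 37.5 FPKM in the sham cultures and 125.6 ± 39.2 after flow (SD, n = 3). Sesn2, an inhibitor of mTORC1 that senses leucine, had 25.3 ± 10.6 and 20.3 ± 10.0 FPKM and the widest interval of the 39 (-1.42 to 0.73). Ddit4 (REDD1), an inhibitor of mTORC1 that hypoxia also induces, had 15.4, 28.1 and 22.7 FPKM in the sham cultures and 15.0, 26.8 and 26.6 in flow. Its fold change was 0.04.

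Among 9 genes of ER protein folding, 8 had a fold change above 0 and 1, Ero1l, lay below, with a median of 0.10. Ero1l, the oxidase that recharges protein disulfide isomerases and that hypoxia induces in many cells, lies on chromosome 14 at 45283087 to 45318771 (mm10, minus strand). It had 228.2, 248.3 and 356.8 FPKM in the sham cultures and 147.3, 190.6 and 163.1 in flow. Every flow value lay under every control value. The log2 fold change was -0.71 (SE 0.19, interval -1.18 to -0.24), with a limma adjusted p of 0.559.

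Hypoxia and glycolysis genes also had lower means in flow, in all 11 and all 13 tested. All flow values lay under all controls in 7 hypoxia and 11 glycolysis genes, against 8% of all genes. Both lists were chosen with earlier results of these data known, so these counts are a description only. In both lists 0 passed the test, where 0.0167% of all genes did. For the hypoxia genes the median deviation from the gene mean was 0.33, 0.21 and 0.87 log2 units in controls 1 to 3 and -0.50, -0.63 and -0.09 in flow libraries 1 to 3. For the glycolysis genes it was 0.25, 0.15 and 0.41 in controls and -0.38, -0.39 and 0.02 in flow. Control 3 was the highest library for both lists and for Ero1l. Within flow, library 2 was the lowest for the hypoxia list and, nearly level with library 1, for the glycolysis list. It was the highest of the flow libraries for Ero1l. Ddit4, which hypoxia also induces, had overlapping groups. In the hypoxia list Vegfa, Ankrd37, Car9 and Kdm3a had them too, and the 7 genes counted above did not. Vegfa is also in the list of further integrated stress response genes. The part of the hypoxia response in the values of Ero1l was not tested.

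The lectin chaperones had overlapping groups, as did the disulfide isomerases. Calr, calreticulin, had 1148, 1561 and 1195 FPKM in the sham cultures and 1135, 1578 and 1203 in flow, a log2 fold change of 0.0026 with an interval of -0.43 to 0.43. Library 2 was the highest of each group. Canx, calnexin, had 431.1 ± 19.9 FPKM in the sham cultures and 463.6 ± 51.1 after flow (SD, n = 3). Pdia3, the isomerase that works with both lectins, had 657.5 ± 81.8 and 830.2 ± 190.7 FPKM, with flow libraries 1 and 2 (851.2 and 1010 FPKM) above all controls and flow library 3 (629.9) among them. Pdia4 and Pdia6 had fold changes of 0.08 and 0.04. Manf, an ER-resident factor that stress also releases from cells, had 639.0 ± 129.2 and 750.1 ± 114.6 FPKM (0.24, interval -0.19 to 0.67). Sdf2l1 and Creld2, ER proteins induced by misfolding, had 0.15 and 0.11, and their 3 flow values lay within the range of the controls.

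Among 4 genes of ER-associated degradation, which returns misfolded proteins to the cytosol, Sel1l had flow values above all controls. Sel1l encodes the adaptor of the ubiquitin ligase made by Syvn1 and lies on chromosome 12 at 91806043 to 91849157 (mm10, minus strand). It had 40.6, 50.2 and 35.9 FPKM in the sham cultures and 66.8, 86.9 and 50.5 in flow, so that the lowest flow library was just above the highest control. The log2 fold change was 0.65 (SE 0.22, interval 0.11 to 1.19, limma adjusted p = 0.559). The authors' second table gave 0.43, with overlapping groups.

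Syvn1 had 38.3 ± 5.27 FPKM in the sham cultures and 36.4 ± 9.87 after flow (SD, n = 3), or -0.09 on the log2 scale. Herpud1, a membrane component of the same machinery, had 68.8, 118.4 and 122.7 FPKM in the sham cultures and 73.1, 129.2 and 161.9 in flow (0.20, interval -0.65 to 1.06). Library 1 was again the lowest of each group. Edem1, which trims mannose from glycoproteins, had 44.8 ± 4.18 and 51.0 ± 8.71 FPKM.

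Among 6 genes of amino acid and one-carbon synthesis, 3 lay above 0 and 3 below. Asns, asparagine synthetase, a standard ATF4 target whose element is printed above, lies on chromosome 6 at 7675169 to 7693254 (mm10, minus strand). It had 336.4, 397.2 and 389.2 FPKM in the sham cultures and 453.6, 459.7 and 407.4 in flow. All flow values were above all controls, and flow library 3 was the nearest to them. The log2 fold change was 0.24 (SE 0.10, interval -0.01 to 0.49, limma adjusted p = 0.559), and 0.13 in the second table.

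Psat1 and Psph, enzymes of serine synthesis, had fold changes of 0.08 and 0.06. Phgdh, the entry enzyme of that path, had 311.3 ± 44.5 FPKM in the sham cultures and 271.1 ± 36.8 after flow (SD, n = 3), but 8 processed pseudogenes at 95.3% to 98.7% identity may take or lend reads, so its value is uncertain. Shmt2 and Mthfd2 act in mitochondrial one-carbon metabolism. Shmt2 had 312.0, 365.1 and 334.4 FPKM in the sham cultures and 231.4, 286.5 and 337.2 in flow (-0.26, interval -0.63 to 0.12). With GC correction its fold change was -0.06, and without flow library 1 it was -0.11. Mthfd2 had a fold change of -0.05.

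Of 4 amino acid transporters 3 had lower means in flow, with a median of -0.18. Slc7a5 (LAT1), which imports leucine and other large amino acids as a dimer with Slc3a2, had 294.8, 340.8 and 317.0 FPKM in the sham cultures and 206.4, 248.5 and 388.1 in flow. Flow libraries 1 and 2 were under all controls and flow library 3 above them. The fold change was -0.23, and -0.48 without flow library 3. Slc3a2 had 165.0 ± 14.1 FPKM in the sham cultures and 151.2 ± 16.4 after flow (SD, n = 3). Slc1a5, a carrier of glutamine and other neutral amino acids, had 147.9, 163.8 and 155.2 FPKM in the sham cultures and 151.5, 84.6 and 154.7 in flow, with a fold change of -0.30, and of -0.02 without flow library 2. Slc7a1, a carrier of arginine and lysine, had a fold change of 0.02.

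Among 4 aminoacyl-tRNA synthetases, which load amino acids onto tRNA, Aars had groups that did not overlap and the other 3 had fold changes near 0. Aars loads alanine and lies on chromosome 8 at 111033144 to 111057664 (mm10, plus strand), and 14.3% of its exon bases are shared with genes on the same strand, among them Exosc6. It had 225.2, 215.7 and 224.3 FPKM in the sham cultures and 153.7, 146.5 and 212.6 in flow. All flow values were under all controls, with flow library 3 close to them. The log2 fold change was -0.39 (SE 0.15, interval -0.76 to -0.02, limma adjusted p = 0.559). In the second table (-0.37, interval -0.80 to 0.06) and with quantile normalization the groups of Aars overlapped, and with GC correction the fold change was -0.21 with an interval that included 0. Of the 4 tested genes with the C/EBP-ATF element, Aars and Chac1 lay below 0 and Asns and Herpud1 above, with a median of -0.07. In the main fit only the interval of Aars excluded 0.

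Nars, Wars and Sars, for asparagine, tryptophan and serine, had fold changes of 0.04, -0.03 and -0.05. Sars had 455.9 ± 35.9 FPKM in the sham cultures and 441.1 ± 29.3 after flow (SD, n = 3). Vldlr, a lipoprotein receptor, was listed at 0 in 5 libraries and at 0.0919 FPKM in control 3, where 3 reads on its longest transcript would give 0.0203 to 0.0216 FPKM in a control and 0.0201 to 0.0671 in a flow library. Its mean was under the minimum of 1 FPKM for the test.

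**Figure D2:**
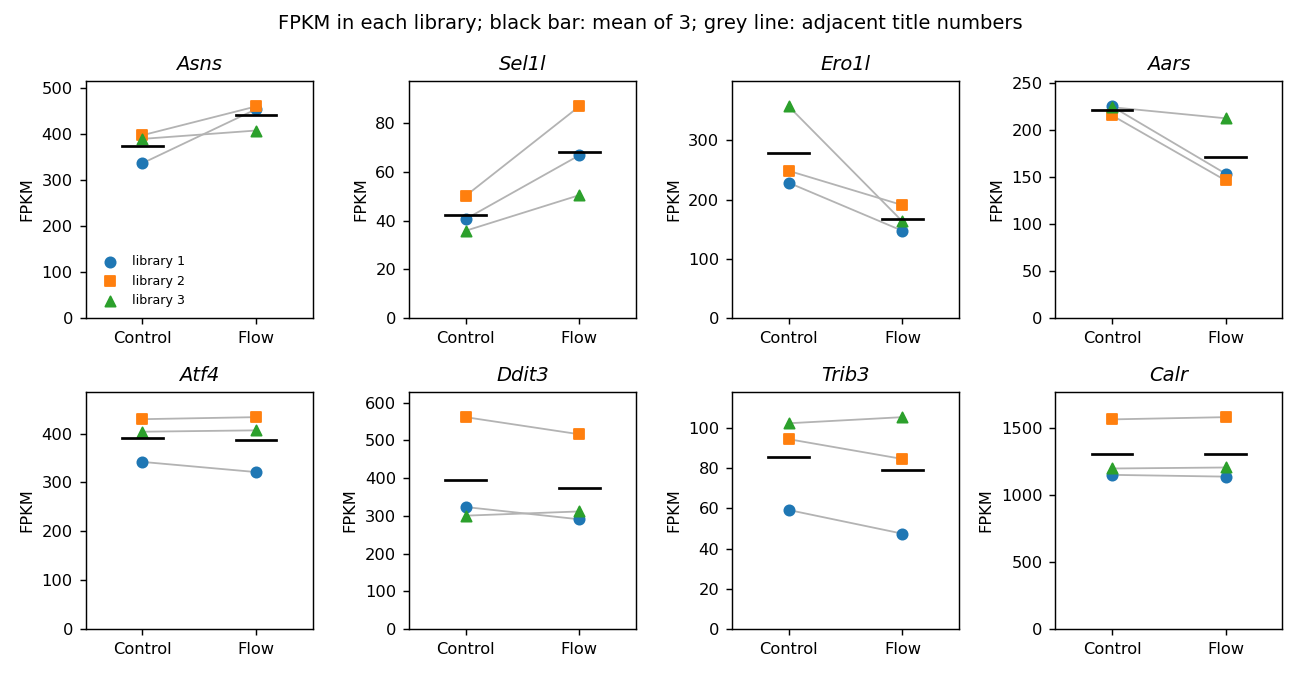
FPKM of 8 members in each library (symbols 1 to 3), with group means as black bars and grey lines between libraries with adjacent title numbers. In the upper row the 3 flow values lie apart from the 3 controls. In the lower row the flow libraries rank as the controls of the same number do, except that libraries 1 and 3 change order in Ddit3.

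Most members varied more among replicates than between flow and control. Library titles of control and flow are adjacent in number within each replicate (3 and 4, 11 and 12, 19 and 20), but no label says that they share a day. In 29 of 39 members (74.4%) the fold change was smaller than the SD of the 3 means of adjacent titles, which held for 43.3% of all genes. The mean of control 2 and flow 2 was the highest in 24 members and that of control 3 and flow 3 in 15, while that of control 1 and flow 1 was the highest in 0 members. Over all genes these shares were 34.1%, 35.5% and 30.5%. Library 1 of both groups was the lowest on average in 29 members, and no share of all genes was computed for this count. Control 1 and flow 1 also had the highest mitochondrial share of FPKM in their groups (13.5% and 20.7%). The part of that share in these levels was not tested.

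The high libraries differed by role. For ER folding genes the median deviation was highest in control 2 (0.26 log2 units) and flow 2 (0.24), while control 3 (-0.17) and flow 3 (-0.10) were low. For feedback and output genes it was -0.41 and -0.68 in control 1 and flow 1, 0.25 and 0.29 in control 2 and flow 2, and 0.37 and 0.36 in control 3 and flow 3. Sesn2, Trib3 and Ppp1r15a were highest in library 3 of each group, while Calr and Ddit3 were highest in library 2. Deviations from the group mean in libraries with adjacent titles correlated across the 39 members at r = 0.82, 0.37 and 0.59 for replicates 1 to 3. Over all 11957 genes r was 0.04, 0.02 and 0.06. These are correlations across genes, which are not independent, and members were grouped because they are known to be induced together.

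**Figure D3:**
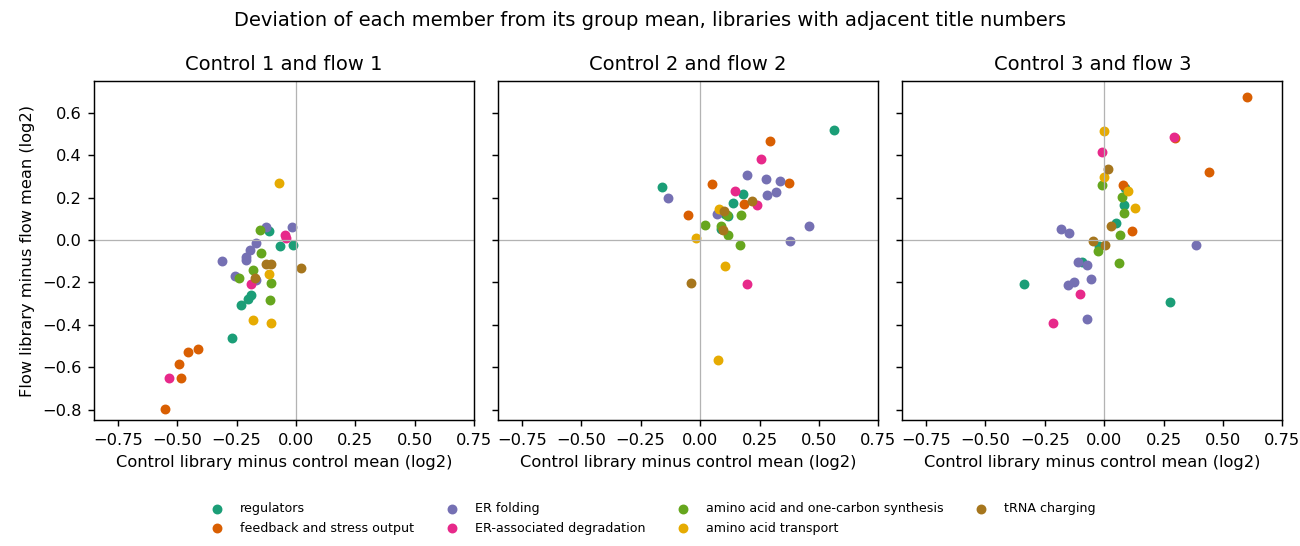
Deviation of each of the 39 members from its group mean in log2(FPKM + 1), control library on the x axis and flow library with the adjacent title on the y axis, 1 panel per replicate, colours by role. Feedback and output genes lie at the lower left in replicate 1, and r across members is 0.82, 0.37 and 0.59.

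**Figure D4:**
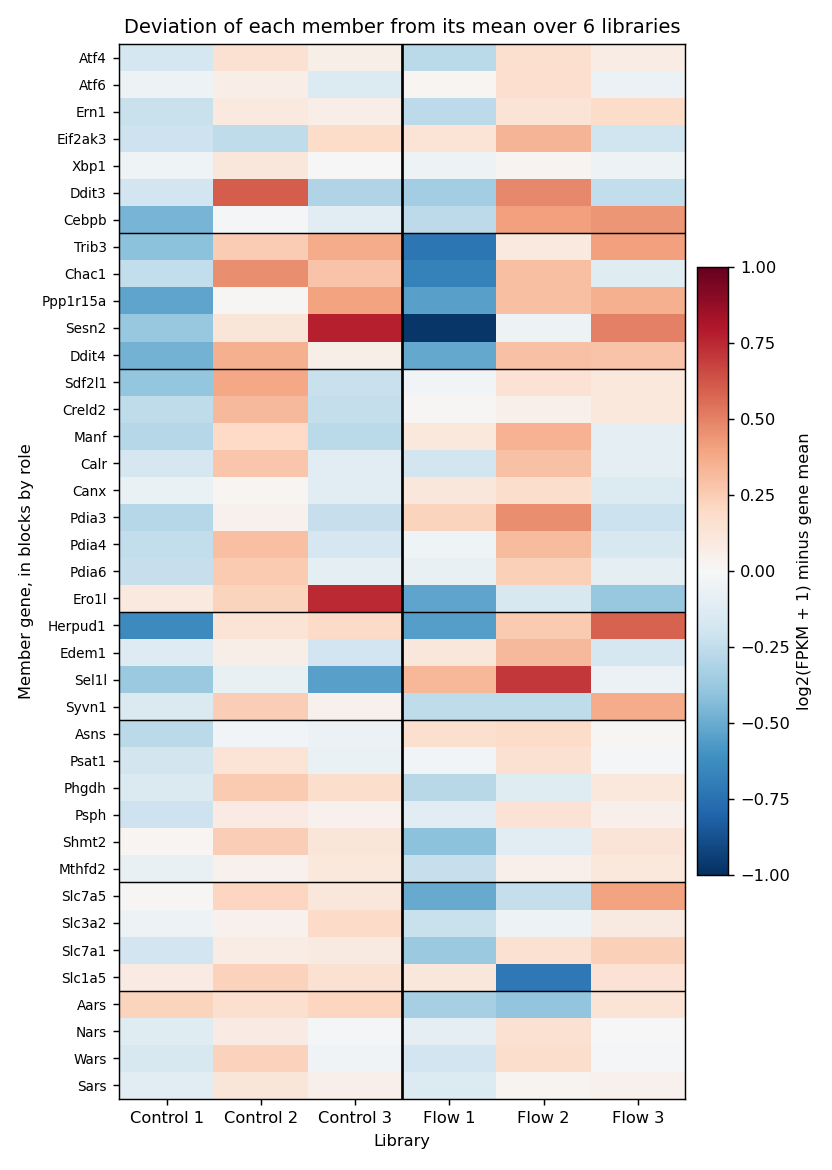
Deviation of each tested member from its own mean over the 6 libraries, in log2(FPKM + 1), with members in rows grouped by role and libraries in columns. Control 1 and flow 1 are low for feedback and output genes, and control 2 and flow 2 are high for most ER folding genes.

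Flow libraries 1 and 2, the shallowest, stood apart from flow library 3 in a smaller share of the members than of all genes. In Pdia3 and Edem1 both lay above all controls while flow 3 was within their range, and in Shmt2 and Slc3a2 both lay below. These patterns, 2 members each, held for 10.1% and 10.3% of all genes, or 20.4% together. The part of depth and of the mitochondrial share in them was not tested. Without flow library 3, 11 members (28.2%) had no overlap with the controls, against 45.6% of all genes, and 0 passed the test. The count was also 11 (28.2%) without control 2, against 23.9% of all genes. It was 8 (20.5%) without flow 1 and 7 (17.9%) without control 1, against 20.9% and 22.7% of all genes. Without flow 2 and without control 3 it was 5 each (12.8%), against 21.6% and 24.2% of all genes. Asns, Sel1l, Ero1l and Aars were among them in each case, which was fixed in advance. Groups that lie apart stay apart when a library is left out.

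GC content moved with the fold changes as well. The 14 members with over 55% GC in their longest transcript had a median fold change of -0.17, and the other 25 had 0.06. Among all protein-coding genes tested these medians were -0.20 and 0.05. After a GC trend was removed from each library, in protein-coding genes, the members' medians were 0.03 and 0.06. Aars (56.4% GC) then had -0.21 and Ero1l (41.6% GC) -0.89, while Sel1l had 0.62, Asns 0.20 and Cebpb 0.65. With that correction 0 members were called (smallest limma adjusted p 0.617) and 3 had an unadjusted p under 0.05 (6.7% of the 10460 genes in that fit). These were Ero1l, Sel1l and Cebpb, so that Cebpb entered and Aars left. The groups did not overlap in 6 members (12.3% of the genes in that fit), the earlier 4 with Cebpb and Canx.

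Other genes of the pathways were counted by list. Of 25 further ER chaperones and quality control genes tested, 0 passed, with 2 above all controls (7.12% of all genes) and 4 below (8%), and a median of 0.05. Dnajb9, an ER co-chaperone and XBP1 target, had 27.7, 40.2 and 40.7 FPKM in the sham cultures and 47.4, 64.4 and 48.6 in flow (0.56, SE 0.20, limma adjusted p = 0.559). Sil1, a nucleotide exchange factor of BiP, had 13.4, 15.4 and 13.3 FPKM in the sham cultures and 11.9, 12.7 and 10.98 in flow (-0.23), all below the controls. Hspa5 (BiP), the main ER chaperone, named here after its values were seen, had 1912, 3144 and 2195 FPKM in the sham cultures and 2957, 3924 and 2464 in flow. Its groups overlapped.

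Of 13 further integrated stress response genes 0 passed and in none did flow and control lie apart, against 15.1% of all genes. Of 15 further synthesis and transport genes 0 passed, with 4 fold changes above 0, 11 below and a median of -0.06. Slc7a11, the cystine importer, had the smallest p of these, with 13.1, 18.5 and 17.2 FPKM in the sham cultures and 25.9, 37.2 and 25.7 in flow. It was the 1 gene of the list above all controls (7.12% of all genes), with a log2 fold change of 0.82 (SE 0.19, limma adjusted p = 0.559). Mthfd1l, of mitochondrial one-carbon metabolism, was the 1 gene of the list below all controls (8% of all genes). It had 100.5, 99.6 and 112.9 FPKM in the sham cultures and 83.6, 79.7 and 99.1 in flow (-0.26). Of 16 further cytosolic tRNA synthetases 0 passed, with 9 above 0 and 7 below. In 1 all flow values lay above all controls (7.12% of all genes) and in 2 below (8%). Mars, for methionine, had 78.3, 79.0 and 75.0 FPKM in the sham cultures and 59.3, 61.8 and 69.2 in flow, and Vars, for valine, had 279.7, 314.0 and 300.2 in controls and 177.3, 227.5 and 274.1 in flow. In both, flow library 3 was the nearest to the controls. Rars, for arginine, was the gene above all controls, with 94.7, 94.2 and 94.1 FPKM in the sham cultures and 107.0, 101.1 and 100.6 in flow (0.12).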

How the data were processed

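RNA sequencing covered 3 flow and 3 non-flow control cultures, with 50-cycle single-end reads on a HiSeq 2500 per the labels' protocols. The submitters' processing notes name Cufflinks 2.2.1, TopHat2 2.0.9, CASAVA 1.8.2 and, as build, mm10. The gene annotation, how reads were counted and whether strand was used were not given in the sources used here. Reads of overlapping genes on opposite strands therefore cannot be told apart. Besides Cebpb and Ddit3, exons on the opposite strand cover 10.4% of the exon bases of Psph, 8.85% for Manf and 8.05% for Eif2ak3. The other members have smaller shares. The authors deposited FPKM, per the file headers, in 2 tables. The tested table names every library. In the other, 2 flow columns match no title and entered only as flow, 22 repeated identifiers were reduced to the row with the higher mean, and it holds 38 of the tested members (Slc7a5 was not matched). No counts were used. Depth was estimated from FPKM times transcript length minus 200 nt in genes with a single transcript. Of the values used, 74.4% to 80.8% per library came within 0.02 of a whole read number. A floor is what 3 reads would give, and covers counting error alone.

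Using limma 3.58.1 (R 4.3.3), log2(FPKM + 1) was compared for genes averaging 1 FPKM or more (trend, two-sided, no covariate, Benjamini-Hochberg over all 11957 genes, threshold 0.05). With 3 against 3 an exact permutation test cannot go under p = 0.1, so none was run on single genes. Members, lists and roles were chosen with earlier results of these data known. Values in every library are given for members whose groups do not overlap and for a fixed set of 13, with other members by means or fold changes. A few more, such as Pdia3, Shmt2 and Slc7a5, were added after their values were seen. At most 4 genes per further list, those with the smallest p, could be named. Positions, transcript lengths, GC and exon overlap are from GENCODE M21, and promoter windows from RefSeq. Motif letters were matched exactly. Alternatives changed the pseudocount, filter, scaling, GC trend, pairing of adjacent titles, the table and each library in turn.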

Additional observations from a re-analysis of the deposited data

How the results depend on the processing

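In every alternative run 0 members were called, and the smallest adjusted p of any member was 0.0695 (limma, Aars without flow library 3). The number of genes called was 2, and became 4 with a pseudocount of 0.1, 1 with a pseudocount of 5, 4 with no filter, 0 with GC correction (limma, 701 of 10460 protein-coding genes at an unadjusted p under 0.05) and 3 to 14 without single libraries. The 4 members without overlap became 2 in the other deposited table, 3 with quantile normalization and 6 with GC correction. Without single libraries they became 5 to 11, where the share of all genes was 20.9% to 45.6%. Leaving out a library can only keep or raise this count. The median over members was 0.04 and ran from -0.08 to 0.10 without single libraries, within the spread between libraries (SD 0.17). With adjacent titles as a replicate block, a pairing that no label states and whose correlations over all genes stayed under 0.1, limma called 1 gene and 0 members (smallest member adjusted p = 0.423). In that fit 7 members had an unadjusted p under 0.05 (11.7% of all genes), and the median SE of the members went from 0.18 to 0.10.

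No member with a fold change over 0.35 in size changed sign. With GC correction the sign changed to -0.067 for Canx, 0.048 for Xbp1, 0.080 for Wars, -0.011 for Nars, 0.088 for Syvn1, 0.060 for Trib3, 0.14 for Atf4 and 0.051 for Sars. In the other table it changed to -0.0032 for Nars, -0.12 for Psph, -0.14 for Eif2ak3, 0.038 for Atf4 and 0.12 for Sars, and with quantile normalization to -0.050 for Calr and -0.0072 for Nars. Without single libraries the fold change ran from -0.14 to 0.14 for Calr, -0.12 to 0.049 for Mthfd2, -0.19 to 0.31 for Ddit4, -0.062 to 0.19 for Pdia6, -0.059 to 0.18 for Ern1, -0.12 to 0.082 for Wars, -0.0026 to 0.38 for Sdf2l1, -0.033 to 0.093 for Nars and -0.30 to 0.0090 for Syvn1. It ran from -0.33 to 0.21 for Ddit3, -0.061 to 0.25 for Pdia4, -0.68 to 0.052 for Sesn2, -0.035 to 0.13 for Psph, -0.064 to 0.53 for Herpud1, -0.38 to 0.18 for Trib3, -0.17 to 0.36 for Ppp1r15a, -0.099 to 0.20 for Slc7a1, -0.12 to 0.11 for Atf4 and -0.11 to 0.0095 for Sars. The cause of these changes of sign was not tested. Without a single library the fold change moved by over 1.5 times in 35 of 39 members, Aars, Asns, Ero1l and Sel1l being the others. Those are the members named for groups that did not overlap, and no share of all genes was computed. Other alternatives moved Aars from -0.39 to -0.21 (GC correction), and Asns from 0.24 to 0.13 and Sel1l from 0.65 to 0.43 (other table). Ero1l, at -0.71, had -0.89 and -0.67 in these 2 fits. Vldlr was left out by the minimum of 1 FPKM and was not called with no filter.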
